A study of Mus musculus with 2 samples.

Results

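The Mir34 family consists of the microRNA genes Mir34a, Mir34b and Mir34c, which lie at 2 loci and are known as targets of the transcription factor p53. They were taken by gene identity, as the rows whose Ensembl identifiers carry these 3 symbols in GENCODE M21, and they are 3 of the 2202 microRNA genes counted. The data are small RNA libraries of whole heart from B6CASTF1/J males at 2 months of age, an F1 hybrid of the C57BL/6J and CAST/EiJ strains. There are 2 libraries, replicate 1 and replicate 2, which carry different biological replicate numbers and animal descriptions but the same donor identifier. No treatment, genotype contrast or other tissue is labelled, so both libraries form 1 group, and the comparisons are between the loci and between the replicates. That the replicates are separate animals rests on those descriptions.

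A microRNA gene is transcribed into a hairpin precursor, which is cut into short mature strands from its 5p and 3p arms. A mature strand pairs with messenger RNAs mainly through its seed, the bases near its 5′ end, and lowers their translation and stability. In mouse and human cells p53 raises transcription from both Mir34 loci after DNA damage, and miR-34 lowers regulators of the cell cycle and of survival. In the mouse heart miR-34a is known to rise with age and after injury and to act on the transcript of Ppp1r10, whose protein is linked to telomere protection. Mir34b and Mir34c are transcribed together and are known mainly from multiciliated epithelia and testis, as are the genes of the Mir449 cluster, whose 5p strands carry the same seed.

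The mature sequences are shown because they define the family and because a read can be assigned to a gene only where its sequence is unique. They are those of RefSeq on GRCm38.p6, the assembly also called mm10, written 5′ to 3′ with the seed, bases 2 to 8, in capitals. The 5p strands listed share the seed GGCAGUG, which 4 of the 1738 mature sequences in the table carry. No miR-34c-5p and no strand of Mir449b is among these sequences, so they are named only and the count of 4 leaves them out.
miR-34a-5p: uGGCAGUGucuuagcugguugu
miR-34b-5p: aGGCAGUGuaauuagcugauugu
miR-449a-5p: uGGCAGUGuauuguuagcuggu
miR-449c-5p: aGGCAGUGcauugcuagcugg
The 3p strands differ in seed between the loci. Those of Mir34b and Mir34c share AUCACUA, which no other mature sequence in the table carries, and that of Mir34a has AUCAGCA to itself.
miR-34a-3p: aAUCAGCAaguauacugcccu
miR-34b-3p: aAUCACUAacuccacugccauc
miR-34c-3p: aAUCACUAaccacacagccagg
Compared base by base from the 5′ end without gaps, miR-34a-5p and miR-34b-5p were identical at 11 of 22 positions. For miR-34a-5p and miR-449a-5p it was 15 of 22, and for miR-34b-3p and miR-34c-3p 17 of 22. The strand miR-34b-5p has 23 bases and miR-34a-5p has 22, and no gap was allowed for this. These values therefore do not rank the strands by likeness.

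The deposited counts are per hairpin gene, and reads of both arms add to 1 count, so the arms cannot be told apart. The hairpin of 1 gene of each locus is shown with both arms in capitals, to show how the arms lie in it.
Mir34a hairpin: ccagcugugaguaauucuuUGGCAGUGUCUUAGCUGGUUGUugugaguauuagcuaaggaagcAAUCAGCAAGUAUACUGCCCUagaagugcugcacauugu
Mir34b hairpin: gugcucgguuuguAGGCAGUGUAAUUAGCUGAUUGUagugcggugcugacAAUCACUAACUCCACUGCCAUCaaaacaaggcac
Mir34a (ENSMUSG00000065493.1) lies at chr4:150068454-150068555 of mm10 on the plus strand. Its 102-base hairpin overlaps an exon of the transcript model Gm37795 on the same strand by 17 bases and lies in no protein-coding gene. Mir34b (ENSMUSG00000065492.1) lies at chr9:51103562-51103645 and Mir34c (ENSMUSG00000065587.1) at chr9:51103034-51103110, both on the minus strand with 451 bases between them. Their hairpins of 84 and 77 bases lie within an intron of the oocyte and embryo gene Btg4, which is on the opposite strand. None of the 3 hairpins shared a stretch of 15 bases or more with any other counted hairpin on either strand. The longest shared stretch was 12 bases for Mir34a and 11 bases each for Mir34b and Mir34c, shorter than any of their mature strands. A genome sequence was not used here, so repeats outside microRNA genes were not searched.

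Counts on the strand of the gene totalled 3650782 in replicate 1 and 3810675 in replicate 2, which were 35.2% and 36.4% of the reads. Reads mapped to several places, 48.0% and 46.4% of the reads, enter no gene. CPM below are counts per 1000000 of these gene totals, and 3 counts are worth 0.822 CPM in replicate 1, against 0.787 CPM in replicate 2. The tissue label was set beside heart muscle genes, of which 6 of 7 reached 2 CPM in both libraries, as did 15.3% of all genes. Of 7 epithelial genes 6 did too, so this count does not tell heart muscle from epithelium. The summed level of the heart muscle genes was 4032 CPM in replicate 1 and 6942 CPM in replicate 2. It was led by Mir499 in replicate 1 and by Mir208a in replicate 2, which are hosted by myosin heavy chain genes. Of the 7 heart muscle genes 4 share at least 20 bases with another hairpin, and reads that map to both enter neither gene. The libraries were not copies of each other (chi-square of 280421 on 319 degrees of freedom over the counts of 320 genes).

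Mir34a was by far the most counted member. Its counts were 7363 in replicate 1 and 12284 in replicate 2, which gave 2017 CPM (Clopper-Pearson 95% interval 1971 to 2063) and 3224 CPM (3167 to 3281). The mean was 2620 CPM ± 853 (SD, n = 2), which placed Mir34a at rank 38 of the 2202 genes. Its share of all microRNA counts was 0.202% in replicate 1 and 0.322% in replicate 2, and the replicates' counting intervals did not overlap. These intervals cover counting error only, since reads without molecular identifiers are not independent molecules. In whole heart, more cells that make a microRNA and more of it per cell cannot be told apart.

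Mir34c, the more counted gene of the chr9 locus, had 224 counts in replicate 1 and 151 in replicate 2. This was 61.4 CPM (95% interval 53.6 to 69.9) and 39.6 CPM (33.6 to 46.5), with a mean of 50.5 CPM ± 15.4 (SD, n = 2) at rank 172. Mir34b had 14 and 23 counts, which was 3.83 CPM (2.10 to 6.43) in replicate 1 and 6.04 CPM (3.83 to 9.06) in replicate 2. Its mean was 4.94 CPM ± 1.56 (SD, n = 2) at rank 302, so it lay near the lower end of the 337 genes that reached 2 CPM in both libraries. All 3 members were above that limit, as were 15.3% of all genes. The order Mir34a, Mir34c, Mir34b was the same in both libraries, and the levels of the members did not overlap between genes. No read was counted on the opposite strand of any member, and their counts without regard to strand were the same as on their own strand.

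**Figure D1:**
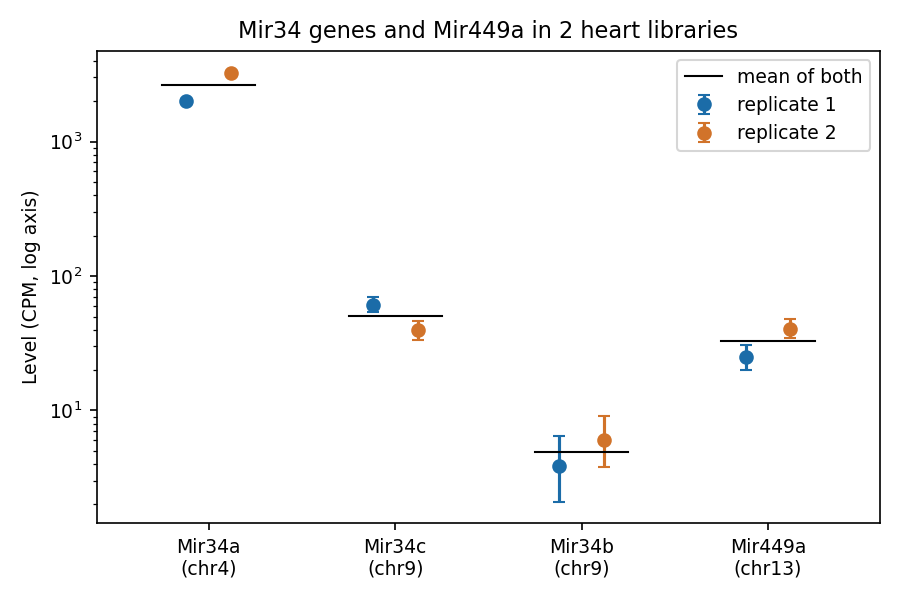
Level in CPM on a log axis of the 3 Mir34 genes and of their seed relative Mir449a in replicate 1 (blue) and replicate 2 (orange), with Clopper-Pearson 95% intervals for counting error and a black line at the mean. Mir34a sits at 2017 and 3224 CPM, Mir34c at 61.4 and 39.6 CPM, Mir34b at 3.83 and 6.04 CPM and Mir449a at 24.9 and 40.7 CPM.

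The Mir34a locus exceeded the Mir34b/c locus in both libraries. In replicate 1 there were 7363 counts for Mir34a against 238 for Mir34b and Mir34c together, a ratio of 30.9. In replicate 2 there were 12284 against 174, a ratio of 70.6. Of the family counts, Mir34a made up 96.9% (Clopper-Pearson 95% interval 96.5 to 97.2) in replicate 1 and 98.6% (98.4 to 98.8) in replicate 2. The log2 ratio of Mir34a over the sum of Mir34b and Mir34c, with 0.5 CPM added to each side, was 4.94 and 6.13, a mean of 5.53 ± 0.84 (SD, n = 2). The excess was therefore larger than the spread between the replicates, while its size differed between them beyond counting error. With 2 libraries an exact sign-flip permutation test cannot give a two-sided p below 0.5, so none was run. Reads of mature strands do not scale with hairpin length. Per base of hairpin the mean log2 ratio was 5.14. Recovery of each mature sequence in library preparation was not corrected for, so these are ratios of counts and not of molecules.

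Within the chr9 locus Mir34c exceeded Mir34b in both libraries. The counts were 224 for Mir34c and 14 for Mir34b in replicate 1, a ratio of 16.0, and 151 and 23 in replicate 2, a ratio of 6.57. Mir34c held 94.1% of the counts of the locus in replicate 1 (95% interval 90.3 to 96.7) and 86.8% in replicate 2 (80.8 to 91.4), and these intervals overlap. The log2 ratio with 0.5 CPM added was 3.83 and 2.62, a mean of 3.23 ± 0.86 (SD, n = 2). The order of the genes was thus the same in both libraries. Whether the ratio differed between them was not tested, and it rests on 14 and 23 counts of Mir34b.

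**Figure D2:**
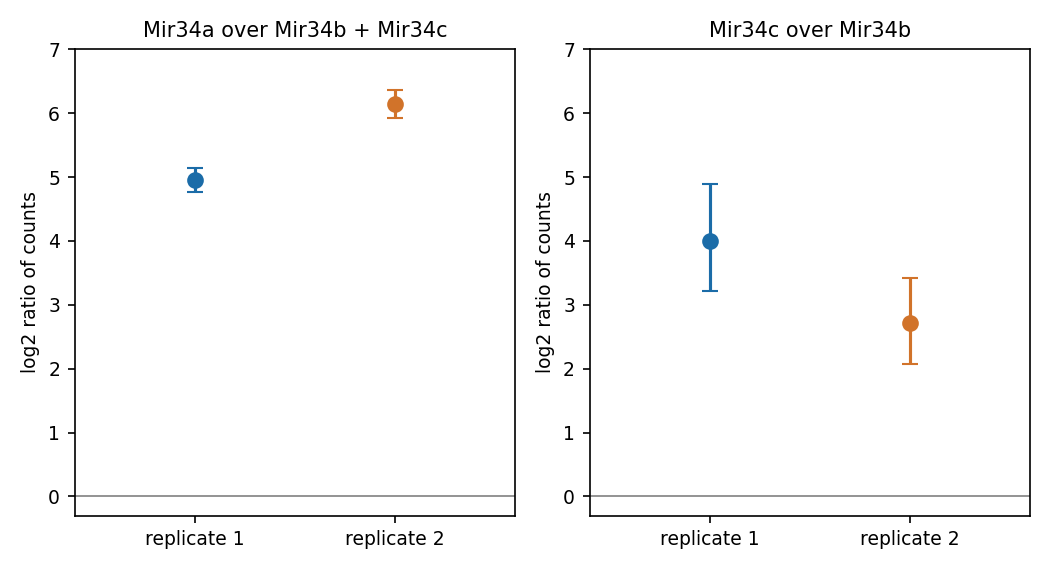
Log2 ratio of counts within each library, with no pseudocount, for Mir34a over the sum of Mir34b and Mir34c (left) and for Mir34c over Mir34b (right). Points are replicate 1 (blue) and replicate 2 (orange), bars are the ratios at the Clopper-Pearson 95% bounds, and the grey line at 0 marks equal counts. All points lie above 0, and the bars of the replicates do not overlap at the left and overlap at the right.

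The members did not move together between the replicates. Each gene was tested on its 2 counts with a two-sided exact binomial test that takes the TMM-scaled depths as the expected split. P-values were adjusted by Benjamini-Hochberg over the 320 genes past a low-count filter, which all 3 members passed. The test sets 2 libraries against counting noise and compares no conditions. Of the 3 members 2 passed it at an adjusted p under 0.05, where 64.4% of all genes tested did. Mir34a was lower in replicate 1, as were 30.6% of genes, with a log2 ratio of replicate 1 over replicate 2 of -0.66 (counting interval -0.71 to -0.62, exact binomial adjusted p = 5.52e-219). Mir34c was higher in replicate 1, as were 33.8% of genes, with a log2 ratio of 0.64 (0.34 to 0.95, exact binomial adjusted p = 4.69e-05). Mir34b did not pass, at -0.62 (-1.71 to 0.38, exact binomial adjusted p = 0.267), an interval that reaches zero and also holds the value of Mir34a but not that of Mir34c.

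Differences of this size were common between these libraries. The median absolute log2 ratio over the 320 genes was 0.436, and 36.9% of them lay at least as far from 0 as Mir34a, 37.5% as far as Mir34c and 38.4% as far as Mir34b. The biological coefficient of variation estimated with edgeR over these genes was 0.370, which includes differences in library preparation. Of the 5 heart muscle genes tested 2 were higher in replicate 1 (33.8% of all genes tested) and 2 were lower (30.6%). Mir208a was lower, as was Mir34a, at 1329 CPM in replicate 1 against 4265 CPM in replicate 2, with a log2 ratio of -1.67, and Mir208b was lower at -2.23. Mir1a-2 was higher at 0.82 and Mir499 at 0.07, and Mir499 did not pass without the low-count filter, at 10 CPM or more in both libraries or without regard to strand. The endothelial gene Mir126a was lower in replicate 1, at 52212 CPM and 70228 CPM, a log2 ratio of -0.41. Without regard to strand only 15 and 29 counts of Mir126a remained, against 190616 and 267615 on its own strand. Its log2 ratio of -0.89 there did not pass the test and rests on those few counts. The 5 leukocyte genes went the other way, at a summed 10633 CPM in replicate 1 and 8668 CPM in replicate 2, with Mir150 their most counted gene at 4069 CPM and 3420 CPM. The part of these cell types in the Mir34 differences was not tested.

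**Figure D3:**
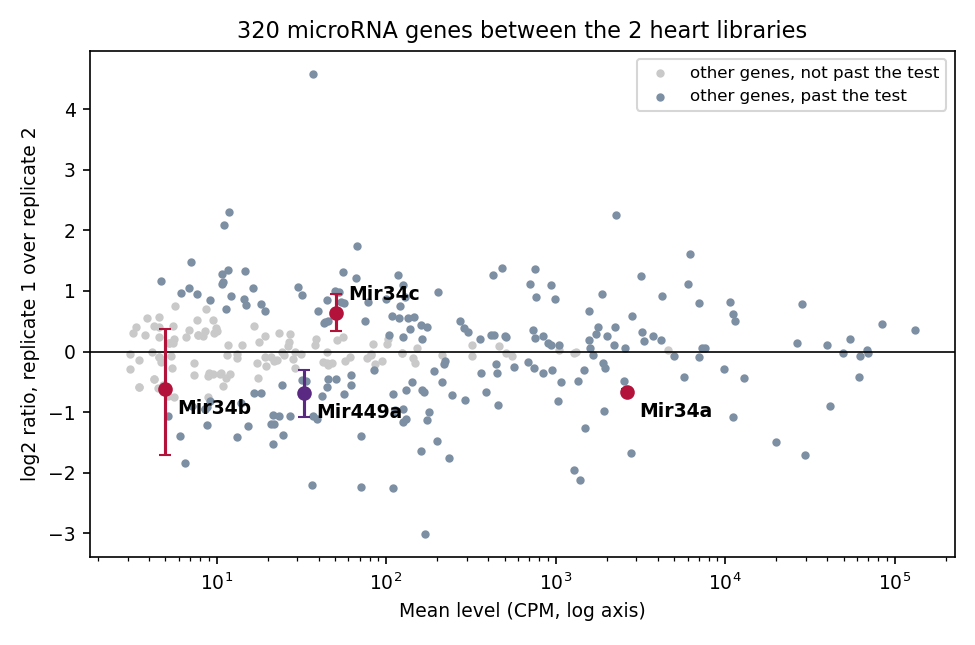
Log2 ratio of replicate 1 over replicate 2 against mean level in CPM (log axis) for the 320 genes tested, dark where the exact binomial test passed. Mir34a at -0.66, Mir34b at -0.62, Mir34c at 0.64 and Mir449a at -0.69 are marked with their counting intervals, and all 4 lie within the cloud of other genes.

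The Mir449 cluster, whose 5p strands carry the family's seed, was represented by 1 gene. Mir449a, at chr13:113037534-113037624 in an intron of the cell cycle related gene Cdc20b, had 91 counts in replicate 1 against 155 in replicate 2. This was 24.9 CPM and 40.7 CPM, a mean of 32.8 CPM ± 11.1 (SD, n = 2) at rank 195. Mir449b and Mir449c, in the same intron, had no count in either library, below the floor of 3 counts given above (Clopper-Pearson 95% upper bounds 1.01 CPM in replicate 1 and 0.968 CPM in replicate 2). Mir449a thus lay below Mir34c in replicate 1 and slightly above it in replicate 2, so the order of these 2 genes turned between the libraries. Against Mir34b, Mir449a was higher in both libraries.

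Mir449a was lower in replicate 1, with a log2 ratio of -0.69 (counting interval -1.08 to -0.31, exact binomial adjusted p = 5.24e-04), so it differed in the same direction as Mir34a. The ratio of Mir34a to Mir449a counts was 80.9 in replicate 1 and 79.3 in replicate 2. Their log2 ratio was 6.31 (counting interval 6.04 to 6.65) in replicate 1 and 6.29 (6.08 to 6.55) in replicate 2, a difference within counting error. Against the Mir34b/c locus, Mir449a had 91 counts where Mir34b and Mir34c together had 238 in replicate 1, and 155 where they had 174 in replicate 2. Mir449a was 27.7% of that sum in replicate 1 (95% interval 22.9 to 32.8) and 47.1% in replicate 2 (41.6 to 52.7). Mir34a was the largest source of counts among genes with the seed.

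Genes of other tissues were counted beside the Mir34b/c locus, whose sum was 65.2 CPM in replicate 1, against 45.7 CPM in replicate 2. Of the 7 epithelial genes 6 reached 2 CPM in both libraries, as did 15.3% of all genes. The summed level of the 7 was 380 CPM in replicate 1 and 315 CPM in replicate 2, led by Mir200c at 174 and 152 CPM. Of the 6 epithelial genes tested 2 were higher in replicate 1, where 33.8% of all genes were, and 1 was lower, where 30.6% were. This turned to 1 higher and 2 lower without the low-count filter. Of 8 testis genes clustered on the X chromosome none was at 2 CPM in both libraries, 5 had no count in either, and their sum was 3.01 CPM in replicate 1 and 1.84 CPM in replicate 2. The most counted of them was Mir741, with 7 and 2 counts. Of 9 neuronal genes 4 had no count and the sum was 309 and 291 CPM, led by Mir128-1 at 210 and 237 CPM. However, 8 of the 9 share at least 20 bases with another hairpin, and reads that map to both enter neither gene. The part of such cells in the Mir34b and Mir34c counts was not tested.

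The genes most like each member were those with the smallest Euclidean distance of log2(CPM + 1) over the 2 libraries. With 2 libraries this only finds genes of like level and like difference. Mir34a was nearest to Mir130a (distance 0.13), which had 2093 CPM in replicate 1 and 2970 CPM in replicate 2, then to Mir499 (0.52) and Mir92-1 (0.61). In mean level it stood between Mir208a at 2797 CPM ± 2077 and Mir499 at 2554 CPM ± 66.2 (SD, n = 2 each), heart muscle genes in introns of myosin heavy chain genes, and differed from neither beyond the spread. Mir34c was nearest to Mir1a-2 (0.16), a heart muscle gene that loses the reads it shares with its copies, then to Mir26a-2 (0.22) and Mir92b (0.22). In mean level Mir34c stood between Mir7j at 51.5 CPM and Mir483 at 50.4 CPM. Mir34b was nearest to Mir8111 (0.05), Gm38670 (0.10) and Mir665 (0.14), and stood between Mir1193 at 5.19 CPM and Mir8111 at 4.80 CPM. Mir92-1, Mir26a-2 and Mir8111 share at least 20 bases with other hairpins and can lose reads too, so their nearness is that of counted reads only.

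Other microRNA genes described, mostly in human cells, as raised or processed more under p53 were listed with 12 symbols, of which 11 were counted here and Mir605 was not matched. All 11 reached 2 CPM in both libraries, as did 15.3% of all genes. Between the replicates 4 were higher in replicate 1 (33.8% of all genes tested), 6 lower (30.6%) and 1 did not pass the exact binomial test, with a median log2 ratio of -0.02, against a median of -0.02 over all 320 genes. By mean level Mir34a ranked below Mir143 at 49706 CPM ± 884 and Mir145a at 4242 CPM ± 1822, smooth muscle genes of 1 cluster, and above Mir15a at 1490 CPM ± 875 (SD, n = 2 each). Its order with Mir145a turned between the libraries, with Mir34a at 2017 and Mir145a at 5530 CPM in replicate 1, and Mir34a at 3224 and Mir145a at 2953 CPM in replicate 2. Mir143 did not pass with DESeq2 size factors and Mir200c did not pass without the low-count filter or without regard to strand.

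The genes for miR-192, miR-194 and miR-215, p53-linked in human cells, were lower in replicate 1, as was Mir34a. Mir192 had 50 counts in replicate 1 against 137 in replicate 2, giving a log2 ratio of -1.37 (exact binomial adjusted p = 3.24e-09). Mir215 had 47 and 229 counts, giving a log2 ratio of -2.20 (exact binomial adjusted p = 2.93e-27). Mir194-1 and Mir194-2 had log2 ratios of -0.68 and -1.19, and they share at least 20 bases with each other, so both lose reads. The cluster of Mir15a and Mir16-1 was split, with Mir15a lower at -1.26 and Mir16-1 higher at 1.38. Mir16-1 loses the reads it shares with its copy Mir16-2. Mir145a was higher in replicate 1 at 0.92, as was Mir107 at 0.22. Mir107 shares at least 20 bases with Mir103-1 and Mir103-2 and can lose reads. The list held genes on both sides, and the Mir34 members lay on both sides too.

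**Figure D4:**
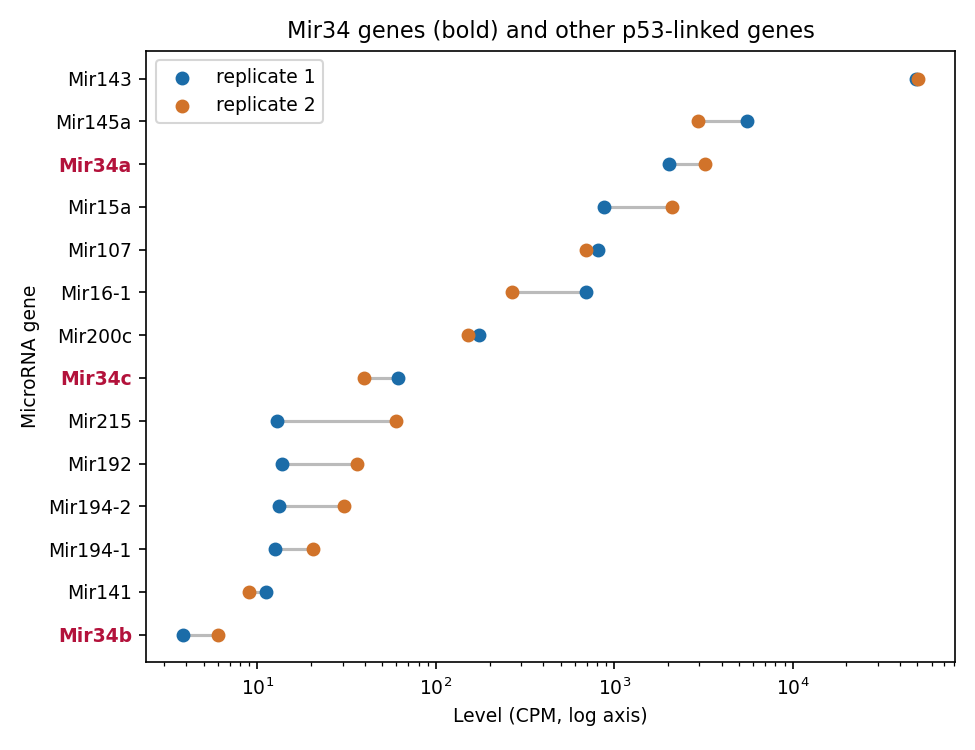
Level in CPM on a log axis in replicate 1 (blue) and replicate 2 (orange) of the 3 Mir34 genes (bold) and the 11 other p53-linked microRNA genes counted, sorted by mean level. Mir34a has the third highest mean of the 14, and Mir34b the lowest.

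Genes described as acting on p53 transcripts, mostly in human cells, were all above 2 CPM in both libraries, as were 15.3% of all genes. Of these 5 genes 2 were higher in replicate 1 (33.8% of all genes) and 2 lower (30.6%) by the exact binomial test. Mir30d, at 10650 CPM ± 4087, was above Mir34a in level, and Mir25 at 513 CPM ± 56.9, Mir125b-1 at 292 CPM ± 114, Mir125b-2 at 152 CPM ± 3.28 and Mir504 at 13.3 CPM ± 8.70 were below it (SD, n = 2 each). Mir125b-1 and Mir125b-2 share at least 20 bases with each other and lose reads, so their order against Mir34a is that of counted reads only. Of 9 other genes linked to ageing of heart or vessel cells, 6 reached 2 CPM in both libraries (15.3% of all genes did) and were tested. None was higher in replicate 1 (33.8% of all genes; 1 of 9 without the low-count filter) and 3 were lower (30.6% of all genes). Mir22, linked to ageing of the mouse heart, was at 29551 CPM ± 22296 (SD, n = 2) with a log2 ratio of -1.70, Mir29a at 12872 CPM ± 2762 with -0.43, and Mir29c at 742 CPM ± 103 with -0.27. Mir217, linked to ageing of human endothelial cells, had 11 counts in replicate 1 and 1 in replicate 2. Both animals were of the same labelled age, so these data hold no comparison of ages.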

How the data were processed

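Small RNA of whole heart was measured in 2 libraries of 1 group. The deposited values are raw read counts per microRNA gene, placed on mm10 with GENCODE M21 per the deposited text beside each file. The aligner is not given in the sources used here. Counts from the strand of the gene (the column 3 values) were analysed. Rows that name no gene, for unmapped, multiply mapped and unassigned reads (64.8% of reads in replicate 1 and 63.6% in replicate 2), were left out of totals and tests. All 2202 identifiers matched GENCODE M21. Mature and hairpin sequences came from RefSeq (GRCm38.p6), and shared stretches from GENCODE M21 hairpins.

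CPM were computed from the deposited counts. Since the labels give no contrast, edgeR 4.0.16 in R 4.3.3 was fitted with an intercept only for TMM sizes (filterByExpr, minimum count 10) and the coefficient of variation. Genes were compared between libraries by exact binomial tests with Benjamini-Hochberg adjustment at 0.05. On counts of the 2202 genes simulated with counting noise only, 88 of 99 tested genes changed by a log2 of 1 or -1 were recovered. Of the 333 genes tested there, 3 unchanged ones were called. These counts held no variation between replicates, so they give no rate of false calls for the real libraries. DESeq2 1.42.0 was an alternative. The members, lists and tests were chosen with earlier results of these data known. Genes named are the members, all seed relatives, genes of the p53 and ageing lists, the 3 nearest genes and both neighbours in level of each member, and the most counted gene of each cell type list. Mir208b is named as well, which completes the heart muscle genes past the test, as are hairpins that share bases with a named gene. Intervals are Clopper-Pearson, computed with scipy 1.17.1 in Python 3.11.15.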

Additional observations from a re-analysis of the deposited data

How the results depend on the processing

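The levels, ratios and calls of the 3 members were recomputed in 40 combinations of result and alternative, and 39 counted as kept. A level or within-library ratio was kept if it moved by less than the SD of the 2 libraries. A log2 ratio between the replicates was kept if its direction and side of the threshold stayed, whatever its size. Leaving out 1 replicate cannot move a mean by that SD, so those alternatives were kept by construction. A further 25, for Mir449a, the counts of genes that differ and the coefficient of variation, were kept too. Mir449a was judged by direction and threshold, and the others by a limit on their fold change. The exception was the ratio of Mir34a to the chr9 locus, which was 6.52 on the log2 scale against the mean of Mir34b and Mir34c in place of their sum, by construction. Leaving out 1 replicate in turn gave 4.94 and 6.13 for that ratio and 2.62 and 3.83 for Mir34c over Mir34b. The Mir34a level ranged from 2017 to 3391 CPM over its alternatives, the highest without regard to strand, where the library total is smaller. Adjusted p-values ranged from 7.11e-273 to 4.77e-206 for Mir34a, 2.38e-05 to 8.97e-04 for Mir34c and 0.263 to 0.337 for Mir34b, which was not tested at 10 CPM or more. The coefficient of variation ranged from 0.360 to 0.409, the highest without the low-count filter, and it was 0.404 with DESeq2 dispersions. The libraries differed in 176 of 238 genes (73.9%) at 10 CPM or more and in 213 of 722 (29.5%) without the filter, against 206 of 320 (64.4%), so the share of genes called depends on the filter. The split was 95 higher and 118 lower in replicate 1 without the filter, against 108 and 98 with it. No paired analysis was possible because the libraries form 1 group. Depth limits Mir34b, and 2 animals limit every statement on spread.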

Other observations

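Neighbouring genes of the p53-linked list were set beside the Mir34b and Mir34c pair after their values were seen. In the chr9 locus the log2 ratios of replicate 1 over replicate 2 were 0.64 for Mir34c and -0.62 for Mir34b, the second with an interval that spans 0. In the Mir15a and Mir16-1 cluster they were -1.26 and 1.38, and for Mir143 and Mir145a -0.02 and 0.92. Both genes were lower in replicate 1 for Mir192 and Mir194-2, at -1.37 and -1.19, and for Mir215 and Mir194-1, at -2.20 and -0.68. For Mir200c and Mir141, close together on chromosome 6, both ratios were above 0, at 0.21 and 0.34. The interval of Mir141 spans 0.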
